A study of Homo sapiens with 9 samples.

Results

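The genes described here are 10 genes listed as immediate early and NR4A transcription factors. They are the nuclear receptors NR4A1, NR4A2 and NR4A3 and the zinc finger factor EGR1. The others are the FOS family genes FOS, FOSB, FOSL1 and FOSL2, and the JUN family genes JUN and JUNB. The 10 genes were taken by symbol from an expression table of 29972 genes, and all 10 of 10 were found. All 10 also passed the filter on low values that left 13498 genes for testing, FOSB only through its siMENA11a libraries. The cells were H2030, an established line of human non-small cell lung cancer, and each of the 9 libraries holds their total RNA after depletion of ribosomal RNA.

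All 3 groups received 20 nmol/L of siRNA with the same lipid reagent, so the control cells were transfected too. The control group received a pool of siRNAs directed at no gene. The siMENA11a group received a custom mix of 3 siRNAs that lie inside exon 11a of ENAH, the gene of the actin regulator hMENA, and the siMENA group received a commercial pool against ENAH as a whole. The control pool and the siMENA pool belong to different reagent lines. Each group has 3 libraries, and the labels do not say that these came from separate cultures. The p-values therefore reflect spread among libraries alone, and that spread may be technical. The series addresses what loss of the hMENA11a isoform does inside the tumour cell, and each knockdown is compared with control and siMENA11a with siMENA directly. Both comparisons against control use the same control libraries.

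Immediate early genes are transcribed within minutes of a growth factor, stress or calcium signal, from factors that already sit at their promoters, without the need for new protein. Serum response factor (SRF) with its ternary complex partners acts through CArG boxes, and the CREB family acts through cyclic AMP response elements (CREs). FOS and JUN proteins pair into AP-1, which carries the signal on to later genes, while EGR1 binds GC-rich sites and the NR4A receptors bind as monomers, as dimers or with retinoid X receptors, with no known need for a ligand. In lung adenocarcinoma cells FOSL1 is best known as the AP-1 subunit that the ERK kinases keep high.

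Values are TPM, transcript abundance per length and library total, divided by a size factor for each library, called scaled TPM. Control libraries had size factors of 0.995 to 1.04, siMENA11a libraries 0.886 to 0.973 and siMENA libraries 1.06 to 1.09. The small structured RNAs of the 7SL and 7SK genes took between 45.3% and 46.6% of all TPM in control, between 50.4% and 51.3% after siMENA11a and between 46.3% and 47.4% after siMENA. ENAH, the targeted gene, was at 43.2 to 44.7 scaled TPM in control, 46.7 to 48.7 after siMENA11a and 6.89 to 7.48 after siMENA. The sum over isoforms checks the siMENA label and not that of siMENA11a, because exon 11a has no value of its own. Of 6 epithelial markers, CDH1 reached at most 0.129 scaled TPM and KRT19 at most 0.0501, and 4 were tested. After siMENA11a KRT7 (0.65), EPCAM (0.80) and KRT18 (-0.25) were called, and after siMENA EPCAM (0.88) and KRT7 (-1.10). The calls of KRT8 after siMENA11a (-0.12) and KRT18 after siMENA (-0.18) were lost under other scalings, and under quantile normalisation the latter was 0.032. KRT7, a simple epithelial keratin, was 1.76 ± 0.088 (log2, SE) higher in siMENA11a than in siMENA (limma adjusted p = 2.62e-07), and the part of these markers in the results was not tested. Of 7 leukocyte markers 4 were listed at 0 in every library, and the sum of all 7 was 1.21 to 1.32 scaled TPM in control, 1.60 to 2.25 after siMENA11a and 0.777 to 0.923 after siMENA. Almost all of that sum was CD14, the lipopolysaccharide co-receptor.

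The promoters are given first, because the motifs in them belong to the factor families described further on. RefSeq's promoter table (GRCh38.p14, 250 bases before to 50 after each annotated start) matched 8 of the 10 genes with 9 windows, all but NR4A2 and FOSL1. The submitters' processing notes name another build, GRCh37, without its role, so the windows were joined to expression values by gene symbol alone. The 5 windows shown are those of EGR1, FOS, JUNB and NR4A3, whose transcripts rose after at least 1 knockdown, and that of JUN, which was not called in any comparison. NR4A1, FOSB and FOSL2 were also called higher after 1 knockdown, and their windows are not printed. Capitals mark the motif matches.
EGR1 promoter, chr5:138465229-138465528, plus strand: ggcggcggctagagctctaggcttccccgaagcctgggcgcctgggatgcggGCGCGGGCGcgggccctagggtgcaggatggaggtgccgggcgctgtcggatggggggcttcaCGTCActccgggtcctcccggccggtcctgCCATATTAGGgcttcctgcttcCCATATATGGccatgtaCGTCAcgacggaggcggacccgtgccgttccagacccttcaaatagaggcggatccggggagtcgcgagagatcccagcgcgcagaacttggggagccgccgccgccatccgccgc
FOS promoter, chr14:75278578-75278877, plus strand: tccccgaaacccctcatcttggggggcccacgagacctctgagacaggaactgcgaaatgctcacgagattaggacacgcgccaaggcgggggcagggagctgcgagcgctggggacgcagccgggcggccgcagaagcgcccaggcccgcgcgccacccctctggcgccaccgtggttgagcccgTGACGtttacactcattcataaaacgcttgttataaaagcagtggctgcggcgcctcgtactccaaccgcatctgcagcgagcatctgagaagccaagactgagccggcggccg
JUNB promoter, chr19:12791236-12791535, plus strand: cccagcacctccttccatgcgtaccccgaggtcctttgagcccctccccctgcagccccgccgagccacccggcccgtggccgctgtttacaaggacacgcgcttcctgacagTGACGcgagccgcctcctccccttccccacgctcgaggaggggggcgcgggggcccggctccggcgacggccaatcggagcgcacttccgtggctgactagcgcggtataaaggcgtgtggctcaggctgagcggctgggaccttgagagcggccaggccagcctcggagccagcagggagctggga
NR4A3 promoter, chr9:99821635-99821934, plus strand: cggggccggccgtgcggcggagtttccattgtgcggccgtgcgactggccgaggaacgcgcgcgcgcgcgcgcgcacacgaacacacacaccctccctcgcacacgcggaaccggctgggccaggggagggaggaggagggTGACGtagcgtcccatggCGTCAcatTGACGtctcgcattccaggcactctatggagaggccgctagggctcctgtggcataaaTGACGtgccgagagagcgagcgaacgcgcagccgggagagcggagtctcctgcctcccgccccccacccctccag
JUN promoter, chr1:58783998-58784297, minus strand: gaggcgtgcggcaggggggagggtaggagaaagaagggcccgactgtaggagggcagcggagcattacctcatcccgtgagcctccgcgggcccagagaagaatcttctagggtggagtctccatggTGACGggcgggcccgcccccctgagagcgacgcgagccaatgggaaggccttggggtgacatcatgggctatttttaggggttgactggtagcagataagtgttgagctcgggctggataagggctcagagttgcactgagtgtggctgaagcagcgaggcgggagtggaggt

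The core of the CRE, TGACG, was searched on both strands, and each promoter printed above holds it. It was found in 7 of the 9 windows of these genes and in 31.9% of the 13818 windows of all tested genes. The NR4A3 window holds 4 matches, at positions -109, -91, -83 and -25 (first base, counted from the annotated start). EGR1 and FOSL2 hold 2 each, and FOS, FOSB, JUN and JUNB 1 each, at -64 in FOS and -137 in JUNB. Neither of the 2 windows of NR4A1, the gene with the largest F statistic of the set, holds a match. Sequence at any other start of NR4A1 was not searched. The CArG box was found only in EGR1 among these windows, with 2 matches at -105 and -83, against 1.06% of the windows of tested genes. EGR1 also held the only EGR site (GCGNGGGCG, 15.1% of windows), and FOSL2 the only AP-1 site (TGANTCA, 5.12% of windows). The full CRE (TGACGTCA, which contains the core on both strands) and the NR4A monomer site (AAAGGTCA) were in none of the 9 windows. A match describes letters in a window and shows no binding. Sequence more than 250 bases before or 50 after a listed start was not searched. A missing match, as for the CArG box in FOS, therefore does not show that a gene lacks the motif.

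**Figure D1:**
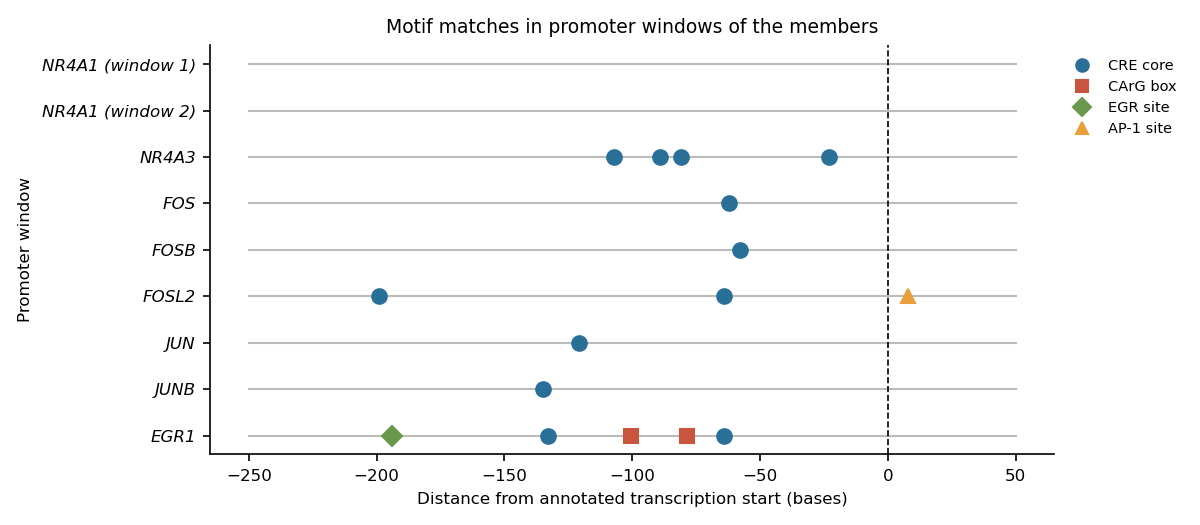
Each line is 1 of the 9 promoter windows of 8 of the genes, from 250 bases before to 50 bases after the annotated start (x axis, distance in bases), and symbols mark motif matches on either strand. EGR1 and NR4A3 carry the most matches and both NR4A1 windows carry none. Sequence outside these windows was not searched.

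After siMENA, 6 of the 10 genes rose (NR4A1, NR4A2, NR4A3, EGR1, FOS and JUNB), 1 fell (FOSL1) and 3 were not called (FOSB, FOSL2 and JUN), by limma on log2(scaled TPM + 0.5) with Benjamini-Hochberg adjustment over all tested genes. Among all tested genes 49.4% were called in that comparison, 23.7% higher and 25.8% lower. After siMENA11a, 5 rose (EGR1, FOS, FOSB, FOSL2 and JUNB), 1 fell (NR4A1) and 4 were not called (NR4A2, NR4A3, FOSL1 and JUN), beside 55.6% of all tested genes called, 27.9% higher and 27.7% lower. FOSB is among these 5 although it passed the filter only through the siMENA11a libraries, and 4 rose without it. In siMENA11a against siMENA, 3 were higher in siMENA11a (FOSL1, FOSL2 and JUNB), 3 were lower (NR4A1, NR4A2 and NR4A3) and 4 were not called (FOS, FOSB, JUN and EGR1), beside 58.7% of all tested genes called, 29.5% higher and 29.2% lower. With so many genes called, the 7, 6 and 6 calls among 10 are not a result on their own. In bulk RNA, a change in the share of cells that express a gene and a change in its RNA per cell cannot be told apart.

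The sizes of the changes are the second measure. The median absolute log2 fold change of the 10 genes was 0.76 after siMENA, beside 0.20 over all tested genes, and NR4A2, NR4A1, EGR1 and NR4A3 ranked 69, 119, 121 and 344 of 13498 by absolute change. After siMENA11a the medians were 0.28 and 0.23, with EGR1 at rank 238 and JUNB at 1307. For siMENA11a against siMENA the medians were 0.38 and 0.25, with NR4A1 at rank 138 and NR4A2 at 252. FOSB (rank 1324 after siMENA11a) enters the medians of the 10 genes although it passed the filter only through siMENA11a. The 0.28 is therefore a description. The libraries of the groups did not overlap for 9 of the 10 genes in siMENA against control, where 57.6% of all tested genes did not overlap. The same held for 6 of the 10 genes in siMENA11a against control (62.9% of all) and 7 of the 10 in siMENA11a against siMENA (65.1% of all). FOSB is counted among the genes without overlap in each comparison.

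**Figure D2:**
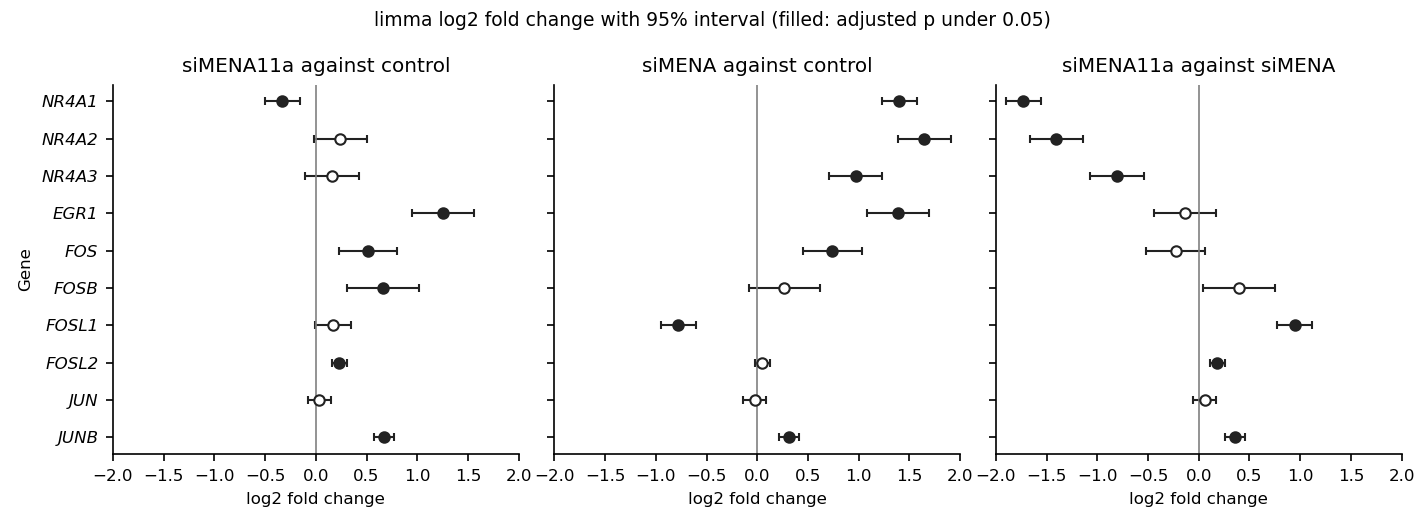
Points are limma log2 fold changes (x axis) with 95% intervals for the 10 genes (y axis) in the 3 comparisons, filled where the adjusted p was under 0.05. NR4A1, NR4A2 and NR4A3 lie right of 0 only after siMENA among the called values, EGR1 lies at 1.25 and 1.39 after the knockdowns, and FOSL1 lies left of 0 after siMENA.

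Scaling bears on the split between higher and lower calls. With size factors, 50.2% of the genes called in siMENA11a against control were higher, 47.9% in siMENA against control and 50.3% in siMENA11a against siMENA. With TPM as deposited these shares were 28.6%, 63.4% and 24.3%, and the log2 fold change of the median gene was -0.11, 0.086 and -0.20. With TPM rescaled after leaving out small and structured RNAs, they were 63.3%, 69.2% and 45.4%. Changes below are therefore relative to the typical gene, and calls among the 10 genes that depend on this choice are named with each gene.

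NR4A1 (Nur77), an orphan receptor induced by growth and death signals, was at 11.9, 12.2 and 15.2 scaled TPM in control libraries 1, 2 and 3. The siMENA libraries were at 36.1, 34.5 and 35.0 scaled TPM, and the siMENA11a libraries at 10.4, 10.1 and 10.3. All siMENA libraries thus lay above all others and all siMENA11a libraries below every control, with no overlap between any 2 groups. The log2 fold change was 1.40 ± 0.077 (SE) after siMENA (limma adjusted p = 1.04e-06) and -0.33 ± 0.077 after siMENA11a (adjusted p = 0.00515). The direct difference, siMENA11a against siMENA, was -1.73 ± 0.077 (adjusted p = 1.28e-07).

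NR4A2 (Nurr1), the receptor known for its part in dopaminergic neurons and a CREB target, stood at 8.56, 9.70 and 12.1 scaled TPM in control. It stood at 33.7, 32.2 and 31.4 in siMENA and at 10.6, 11.8 and 13.5 in siMENA11a. The siMENA libraries were apart from all the others, whereas siMENA11a and control overlapped. After siMENA the log2 fold change was 1.65 ± 0.12 (limma adjusted p = 4.32e-06), the highest in the set, and siMENA11a against siMENA gave -1.41 ± 0.12 (adjusted p = 5.64e-06). After siMENA11a it was 0.24 ± 0.12 (adjusted p = 0.109), with a 95% interval of -0.023 to 0.50. That difference was called without control library 3, the highest control (0.37, adjusted p = 0.0106), and without small and structured RNAs (0.33, adjusted p = 0.0382).

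NR4A3 (NOR1), the third receptor of the family, was much scarcer, at 1.28, 1.14 and 1.40 scaled TPM in control, 3.38, 2.55 and 3.01 in siMENA and 1.29, 1.53 and 1.64 in siMENA11a. It followed the order of NR4A2, with siMENA above the rest and the other groups overlapping. The log2 fold change was 0.97 ± 0.12 after siMENA (limma adjusted p = 0.000126) and 0.16 ± 0.12 after siMENA11a (adjusted p = 0.270, 95% interval -0.10 to 0.43). As with all genes of a few TPM, the added 0.5 makes this smaller than the ratio of the means, which was 2.34 for siMENA to control.

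On the scaled TPM, which is per transcript length, the 3 receptors summed to 24.5 ± 3.67 (SD, n = 3) in control, 23.7 ± 1.58 after siMENA11a and 70.6 ± 2.26 after siMENA. The mix of receptors also differed between groups. NR4A1 made up 53.6% ± 1.02 of it in control, 49.9% ± 0.545 in siMENA and 43.4% ± 3.09 in siMENA11a. NR4A2 was the larger part in siMENA11a, at 50.3% ± 2.72, against 41.2% ± 1.57 in control and 45.9% ± 0.657 in siMENA. For both receptors' shares no 2 groups overlapped, and an exact two-sided permutation test gave p = 0.1 for each pair, the smallest that 3 against 3 libraries allow. Of the retinoid X receptors that NR4A1 and NR4A2 pair with, RXRB was at 9.65, 11.3 and 13.9 scaled TPM in control, siMENA11a and siMENA (group means). RXRB rose after siMENA (log2 fold change 0.50 ± 0.061, limma adjusted p = 0.000125). It was also called higher after siMENA11a (0.22 ± 0.061, adjusted p = 0.013), though not in TPM as deposited. RXRA, at 9.46, 9.64 and 9.61 in the same order, was called in no comparison with size factors. In TPM as deposited RXRA was called lower in siMENA11a than in siMENA. RXRG was listed at 0 in every library.

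**Figure D3:**
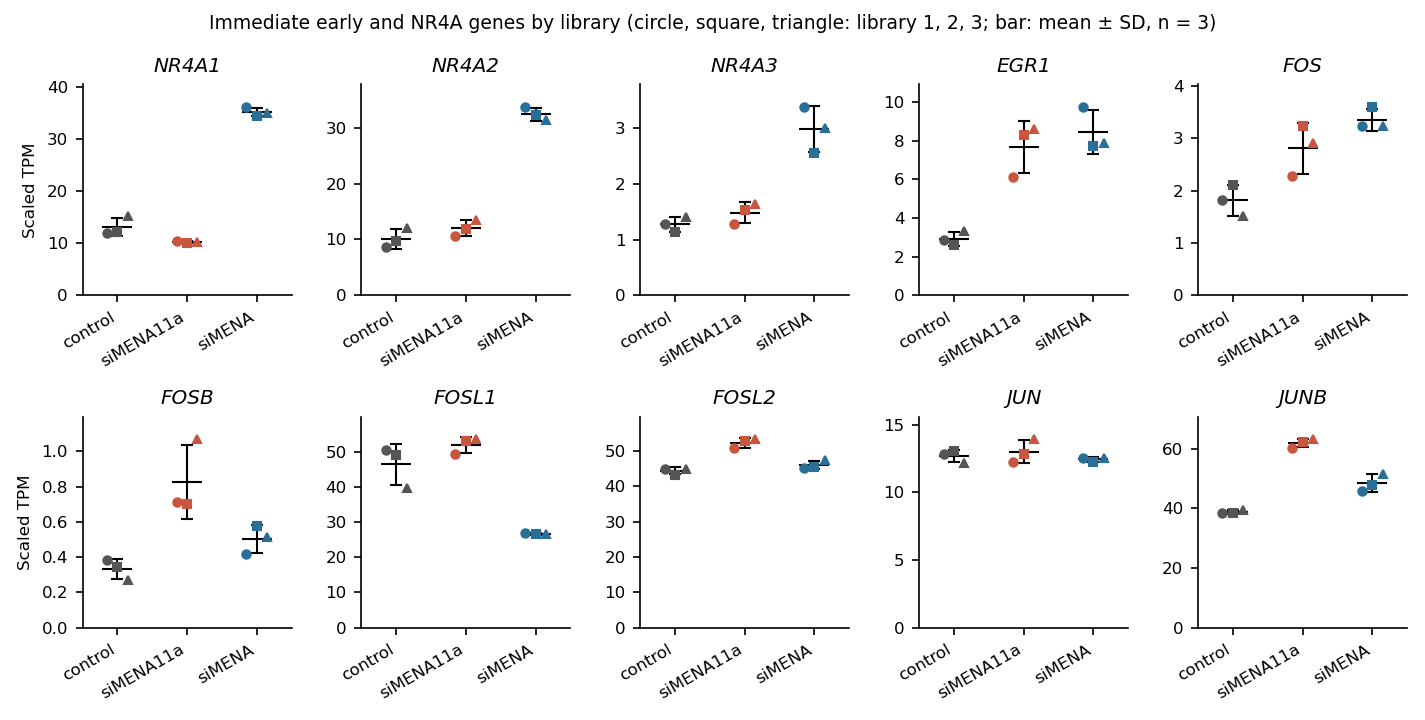
Each panel shows 1 gene, with scaled TPM on the y axis (from 0) and the 3 groups on the x axis. Circle, square and triangle are libraries 1, 2 and 3, and bars are the mean ± SD (n = 3). In siMENA the 3 NR4A genes stand above both other groups, EGR1 is raised in both knockdown groups, and FOSL1 is lowest in siMENA.

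EGR1, a growth factor induced activator and a standard readout of SRF and ERK activity, was at 2.84, 2.60 and 3.32 scaled TPM in control. It was at 6.14, 8.31 and 8.61 in siMENA11a and at 9.75, 7.72 and 7.91 in siMENA. Every knockdown library exceeded every control, and the 2 knockdown groups overlapped. The log2 fold change was 1.25 ± 0.14 after siMENA11a (limma adjusted p = 4.86e-05) and 1.39 ± 0.14 after siMENA (adjusted p = 3.27e-05). Between the knockdowns it was -0.14 ± 0.14 (adjusted p = 0.417, 95% interval -0.44 to 0.17), and its sign turned without siMENA11a library 1 (0.0087). The EGR1 relatives EGR2 and EGR3 reached at most 0.0822 scaled TPM in any library, and EGR4 at most 0.256. NAB2, a corepressor that binds EGR1 and is itself an EGR target, rose after siMENA (0.42 ± 0.068, adjusted p = 0.00075) and fell after siMENA11a (-0.28 ± 0.068, adjusted p = 0.00659).

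FOS, the founding subunit of AP-1, was low in all groups, with 1.82, 2.10 and 1.52 scaled TPM in control, 2.28, 3.24 and 2.91 after siMENA11a and 3.23, 3.60 and 3.23 after siMENA. Both knockdown groups lay above control and overlapped each other. The log2 fold changes were 0.51 ± 0.13 after siMENA11a (limma adjusted p = 0.0071) and 0.74 ± 0.13 after siMENA (adjusted p = 0.00107). Between the knockdowns the difference was -0.23 ± 0.13 (adjusted p = 0.153), and among the alternatives run it was called only in TPM as deposited (-0.41, adjusted p = 0.0245).

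FOSB, whose protein resembles FOS and lasts longer in its truncated form, was the scarcest of the 10, at 0.382, 0.346 and 0.270 scaled TPM in control. It reached 0.711, 0.704 and 1.07 in siMENA11a and 0.417, 0.578 and 0.514 in siMENA. The 3 groups did not overlap, with siMENA between the others. Only the change after siMENA11a was called (0.66 ± 0.16, limma adjusted p = 0.00542). The values after siMENA (0.27 ± 0.16, adjusted p = 0.188) and in siMENA11a against siMENA (0.40 ± 0.16, adjusted p = 0.0531) were not. FOSB passed the filter, a mean of 0.5 over all libraries, only because of siMENA11a (group means of 0.333 in control, 0.828 after siMENA11a and 0.503 after siMENA), so its call there is a description and supports nothing. Without siMENA11a library 3, which holds its highest value, FOSB fell under the filter and was not tested. With no filter at all, the change after siMENA11a was called (0.66, adjusted p = 0.00286), and so was siMENA11a against siMENA (0.40, adjusted p = 0.0305).

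FOSL1 (FRA1), the ERK-stabilised AP-1 subunit linked to invasion, was abundant, at 50.4, 49.0 and 39.9 scaled TPM in control. The siMENA libraries were at 27.0, 26.5 and 26.6 scaled TPM, all below every other library, and the siMENA11a libraries at 49.3, 53.0 and 53.6 overlapped control. FOSL1 fell by 0.78 ± 0.077 on the log2 scale after siMENA (limma adjusted p = 3.65e-05) and was the only one of the 10 called lower in that comparison. It was 0.95 ± 0.077 higher in siMENA11a than in siMENA (adjusted p = 5.35e-06). Against control, siMENA11a gave 0.17 ± 0.077 (adjusted p = 0.0928), which was called without control library 1 (0.23, adjusted p = 0.0363), under quantile normalisation (0.22, adjusted p = 0.0378) and without small and structured RNAs (0.25, adjusted p = 0.0204).

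FOSL2 (FRA2), the other FOS-related antigen, varied within a small range, at 45.0, 43.3 and 45.0 scaled TPM in control, 50.8, 52.8 and 53.3 after siMENA11a and 45.1, 45.6 and 47.5 after siMENA. Its siMENA11a libraries lay above the rest, with siMENA just above control. It rose by 0.23 ± 0.034 after siMENA11a (limma adjusted p = 0.000297), which was not called in TPM as deposited (0.10, adjusted p = 0.155). The level was 0.18 ± 0.034 higher in siMENA11a than in siMENA (adjusted p = 0.00117), with the opposite sign in TPM as deposited (-0.034, adjusted p = 0.620). After siMENA the value was 0.051 ± 0.034 (adjusted p = 0.239), called without small and structured RNAs (0.17, adjusted p = 0.00388) and under quantile normalisation (0.14, adjusted p = 0.0113).

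Summed per transcript length, the FOS family stood at 93.0 ± 5.69 scaled TPM in control, 107.9 ± 4.20 after siMENA11a and 76.6 ± 1.10 after siMENA. No groups overlapped on this scale, whereas in TPM as deposited siMENA11a (91.4 to 107.9) overlapped control (86.5 to 98.7) and siMENA (80.0 to 84.8) stayed below both. FOSL1 made up 49.8% ± 3.27 of the family in control and 34.9% ± 0.708 in siMENA, with 48.1% ± 0.287 in siMENA11a. FOSL2 was the larger part in siMENA, with 60.1% ± 0.766 against 47.9% ± 3.47 in control. FOS itself was 1.95% ± 0.242 of the family in control and 4.38% ± 0.300 in siMENA, a small part of the sum in each group. For the FOS, FOSL1 and FOSL2 shares, siMENA lay apart from control (exact two-sided permutation p = 0.1, the smallest possible).

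JUNB, an AP-1 subunit that often restrains JUN, was at 38.4, 38.6 and 39.5 scaled TPM in control libraries, 60.4, 62.4 and 63.2 in siMENA11a and 45.8, 47.8 and 51.7 in siMENA. The 3 groups did not overlap, and siMENA11a was the highest. Its log2 fold change was 0.67 ± 0.044 after siMENA11a (limma adjusted p = 1.94e-06) and 0.31 ± 0.044 after siMENA (adjusted p = 0.00029). The direct difference of 0.35 ± 0.044 (adjusted p = 8.00e-05) was 0.14 in TPM as deposited and not called there (adjusted p = 0.0871).

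JUN, the main activating partner in AP-1, was at 12.8, 13.0 and 12.2 scaled TPM in control, 12.2, 12.8 and 13.9 after siMENA11a and 12.5, 12.2 and 12.5 after siMENA. All groups overlapped. The log2 fold change was 0.033 after siMENA11a (limma adjusted p = 0.604, 95% interval -0.081 to 0.15) and -0.027 after siMENA (adjusted p = 0.695, 95% interval -0.14 to 0.088), and both signs turned in TPM as deposited. JUN was the only 1 of the 10 called in no comparison. A TGACG core is in its promoter window and in those of FOS and JUNB. The part of this core in the results was not tested.

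JUND, the JUN family gene outside the set and the one least dependent on stimulation, was at 25.7, 27.9 and 35.4 scaled TPM in control, 26.9, 32.6 and 28.8 after siMENA11a and 48.9, 49.0 and 49.2 after siMENA. It rose after siMENA (0.73 ± 0.11, limma adjusted p = 0.000387) and was not called after siMENA11a (0.00047 ± 0.11, adjusted p = 0.998). The JUN family sum was 81.1 ± 5.28 scaled TPM in control, 104.4 ± 4.35 after siMENA11a and 109.9 ± 3.15 after siMENA, above control in both cases also in TPM as deposited. The composition differed: JUNB was 59.4% ± 1.42 of the sum in siMENA11a against 48.0% ± 2.35 in control and 44.0% ± 1.43 in siMENA. JUND was 44.6% ± 1.14 in siMENA against 36.4% ± 3.78 in control and 28.2% ± 1.80 in siMENA11a. Between the knockdowns the exact two-sided permutation p was 0.1, the smallest possible, for the shares of JUN, JUNB and JUND.

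**Figure D4:**
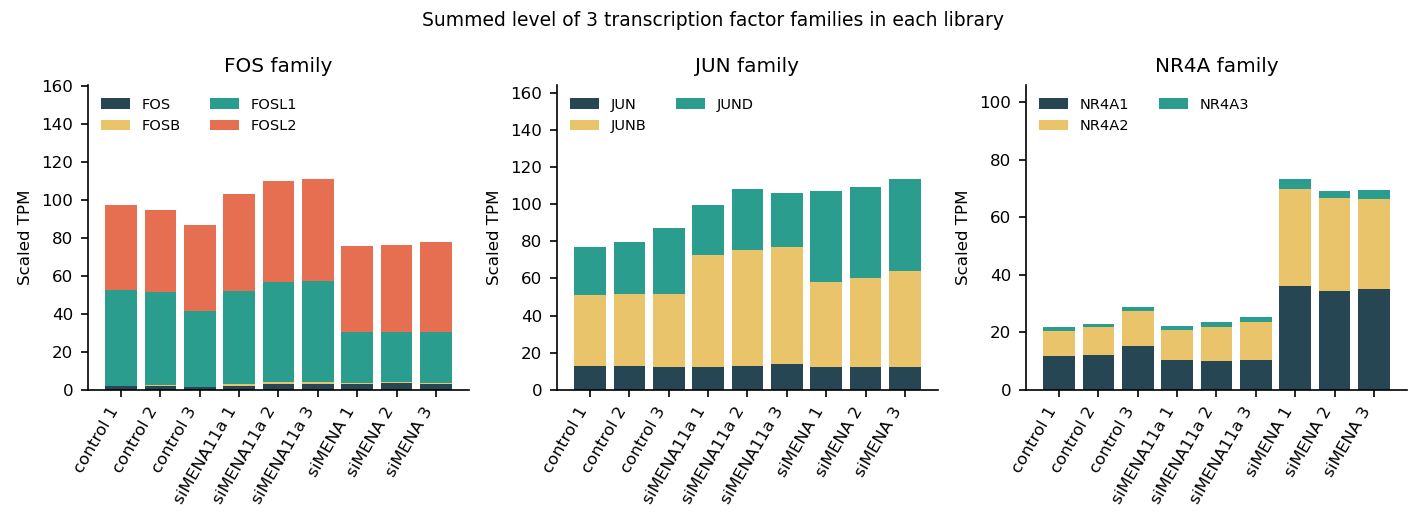
Stacked bars give scaled TPM (y axis, from 0) of the FOS, JUN and NR4A families in each of the 9 libraries (x axis), coloured by gene. In siMENA the FOSL1 layer is thin, the JUND layer is thick and the NR4A stack is far above the control height, while in siMENA11a the JUNB layer is thickest.

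Within siMENA11a, library 3 held the highest value for 8 of the 10 genes and library 1 the lowest for 8, and their size factors were 0.973 and 0.886. Leaving out library 1 or 3 in turn changed none of the calls of the genes still tested in siMENA11a against control, and without library 3 the uncalled JUN value changed sign (-0.013). The part of this library order in the results was not tested.

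The other immediate early genes moved both ways. Of 43 listed, 39 were tested, and after siMENA11a 20 rose and 10 fell, with a median log2 fold change of 0.17 (0.015 over all tested genes, of which 27.9% rose and 27.7% fell). In TPM as deposited these counts were 11 and 12. After siMENA 14 rose and 12 fell, with a median of -0.0082 (0.0076 over all, of which 23.7% rose and 25.8% fell). In siMENA11a against siMENA 21 were higher and 13 lower (29.5% and 29.2% over all), and 12 and 17 in TPM as deposited. DUSP2 is counted among the higher genes in each comparison, but it passed the filter only through siMENA11a. Its group means were 0.180 in control, 1.23 after siMENA11a and 0.544 after siMENA (scaled TPM), so its calls are a description.

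Several genes that usually accompany FOS and EGR1 differed between the knockdowns. RHOB, a small GTPase induced by stress, was at 23.2 ± 0.753 scaled TPM in control, 12.2 ± 0.818 after siMENA11a and 37.7 ± 2.13 after siMENA (SD, n = 3), and siMENA11a against siMENA gave -1.59 ± 0.056 (limma adjusted p = 4.32e-08). ATF3, a stress-induced AP-1 partner, ran the other way, at 3.32 ± 0.438, 5.59 ± 0.688 and 2.12 ± 0.317 scaled TPM in the same order, with 1.22 ± 0.12 between the knockdowns (adjusted p = 2.34e-05). CSRNP1, a nuclear protein induced by AXIN1, rose after siMENA11a (0.93 ± 0.056, adjusted p = 1.20e-06) and was at -0.13 ± 0.056 after siMENA (adjusted p = 0.0764). CYR61, the matricellular YAP and SRF target, fell after both, by 0.65 ± 0.027 after siMENA11a and by 0.80 ± 0.027 after siMENA (adjusted p = 1.43e-07 and 8.30e-08). Its relative CTGF, of the same list, went the other way. CTGF rose by 0.81 ± 0.056 after siMENA11a and by 0.24 ± 0.056 after siMENA (adjusted p = 2.94e-06 and 0.00646). MYC rose after both, by 0.35 ± 0.034 and 0.46 ± 0.034 (adjusted p = 2.75e-05 and 6.16e-06). DUSP1, the phosphatase that ends MAP kinase signals, was at 0.17 ± 0.042 after siMENA11a (adjusted p = 0.00738, not called in TPM as deposited) and -0.055 ± 0.042 after siMENA (adjusted p = 0.303).

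**Figure D5:**
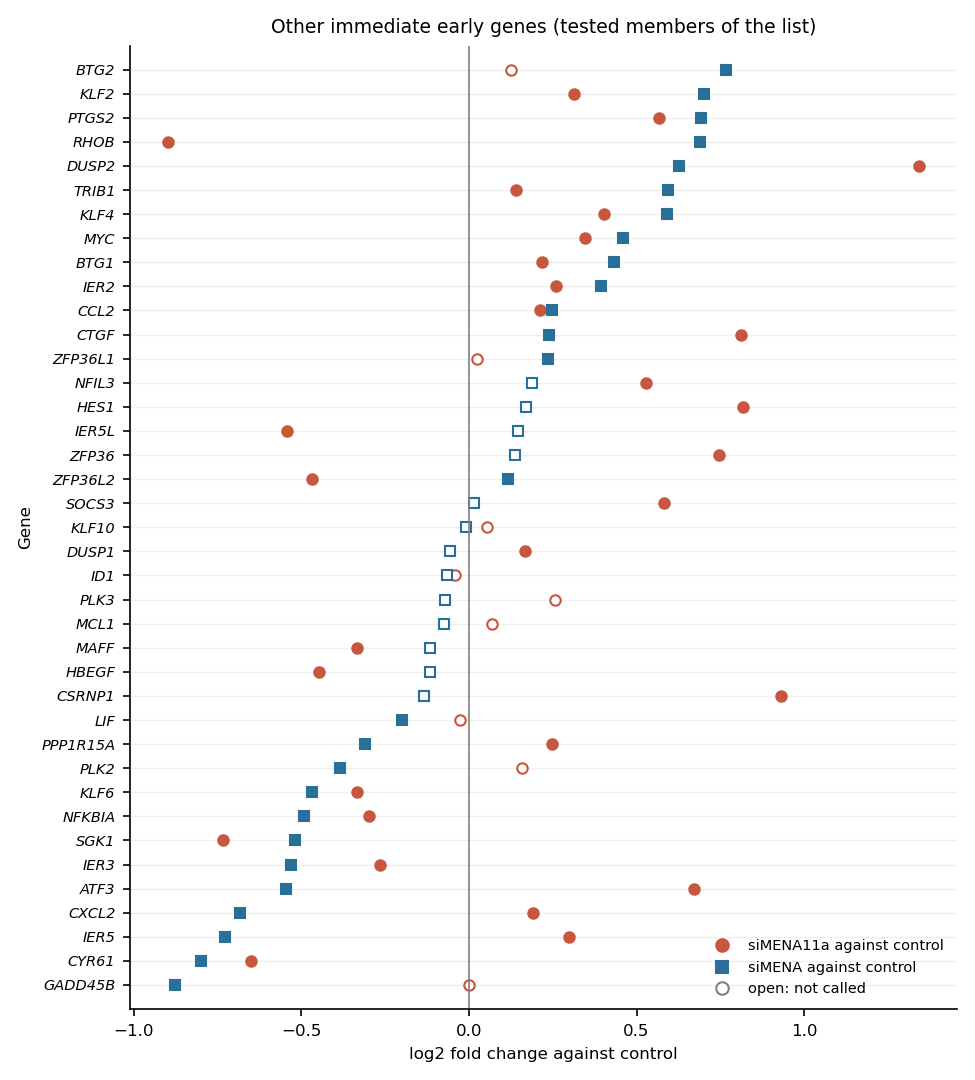
Log2 fold changes against control (x axis) of the 39 tested genes of the list of other immediate early genes (y axis), with circles for siMENA11a, squares for siMENA, and open symbols where the adjusted p was not under 0.05. Both comparisons use the same control libraries, and RHOB and ATF3 show the widest opposite values.

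Among the factors that act at immediate early promoters, CREM, a CREB family gene whose short product ICER is itself inducible through CREs, rose after both knockdowns. It was at 17.0 ± 0.297 scaled TPM in control, 37.0 ± 0.694 after siMENA11a and 22.2 ± 1.02 after siMENA, with log2 fold changes of 1.10 ± 0.039 (limma adjusted p = 7.81e-08) and 0.37 ± 0.039 (adjusted p = 5.21e-05). ATF1, the CREB relative, fell after siMENA11a (-0.73 ± 0.062, adjusted p = 9.98e-06) and was called higher after siMENA (0.17 ± 0.062, adjusted p = 0.0483), where its libraries overlapped control and the call was lost under quantile normalisation. SRF rose by 0.46 ± 0.042 after siMENA (adjusted p = 2.20e-05) and by 0.18 ± 0.042 after siMENA11a (adjusted p = 0.00519), the latter not called in TPM as deposited. Its actin-sensing coactivators differed, with MKL1 higher after siMENA11a (0.32 ± 0.041) and lower after siMENA (-0.20 ± 0.041, not called in TPM as deposited or without small and structured RNAs). MKL2 went the opposite way to MKL1, at -0.43 after siMENA11a (adjusted p = 0.000471) and 0.22 after siMENA (adjusted p = 0.0199). Of the 17 listed upstream factors and corepressors, all tested, 5 rose and 7 fell after siMENA11a, beside 27.9% and 27.7% of all tested genes. These counts were 3 and 8 in TPM as deposited and 6 and 5 without small and structured RNAs. After siMENA 11 rose and 2 fell, beside 23.7% and 25.8% of all tested genes.

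The MAP kinase cascade that feeds these factors had 24 of 25 genes tested, with 3 higher and 6 lower after siMENA11a and 5 higher and 8 lower after siMENA. Those 9 and 13 calls stand beside 55.6% and 49.4% of all tested genes called, so they are no result about the cascade. With TPM as deposited these counts were 1 and 12, and 7 and 3. HRAS fell by 1.22 ± 0.055 and MAPK3, which encodes ERK1, by 0.78 ± 0.071 after siMENA11a (limma adjusted p = 2.30e-07 and 1.62e-05). Of the 16 tested transcripts that follow ERK activity, 10 were higher and 1 lower after siMENA (23.7% and 25.8% over all tested genes). These counts were the same in each scaling tried. After siMENA11a 7 were higher and 4 lower (27.9% and 27.7% over all tested genes), and 5 and 6 in TPM as deposited. DUSP6, the ERK phosphatase that ERK itself induces, was at 4.18 ± 0.439 scaled TPM in control, 6.03 ± 0.463 after siMENA11a and 8.81 ± 0.323 after siMENA, and the difference between the knockdowns was -0.51 ± 0.080 (adjusted p = 0.000381). DUSP5 rose after siMENA11a (0.84 ± 0.059, adjusted p = 3.09e-06) and was at 0.047 ± 0.059 after siMENA (adjusted p = 0.545). The 1 gene that fell after siMENA was CCND1, the cyclin gene (-0.51 ± 0.060, adjusted p = 0.000105), which lies outside the rule for named genes and was named after its value was seen.

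Of 19 listed AP-1 target genes 13 were tested, and after siMENA, where FOSL1 was low, 2 rose and 8 fell, with a median log2 fold change of -0.34. Over all tested genes 23.7% rose and 25.8% fell in that comparison. After siMENA11a 6 rose and 5 fell (27.9% and 27.7% over all), with a median of 0.13, and in TPM as deposited 4 rose and 6 fell. CD44, the hyaluronan receptor, was at 83.5 ± 4.98 scaled TPM in control, 58.9 ± 1.15 after siMENA11a and 32.6 ± 2.80 after siMENA, a log2 fold change of -1.34 ± 0.063 after siMENA (limma adjusted p = 4.62e-07). PLAU, the urokinase gene, fell after both (-1.13 ± 0.12 after siMENA11a and -1.29 ± 0.12 after siMENA), whereas its receptor gene PLAUR rose after siMENA11a (0.58 ± 0.052, adjusted p = 1.27e-05). HMGA1, a chromatin protein regulated by AP-1, was 0.65 ± 0.041 higher in siMENA11a than in siMENA (adjusted p = 9.49e-07). The 2 that rose after siMENA were MMP10 and AREG. AREG, which encodes the EGFR ligand amphiregulin, was at 32.0 ± 0.620 scaled TPM in control, 36.8 ± 1.88 after siMENA11a and 48.7 ± 2.66 after siMENA (0.60 ± 0.048 after siMENA, adjusted p = 9.99e-06). MMP10, the stromelysin gene, was at 0.177 ± 0.076, 0.897 ± 0.145 and 1.70 ± 0.060 scaled TPM in the same order, and with so low a control level it passed the filter only through the knockdown groups, so its calls are a description. The part of FOSL1 in these values was not tested.

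The genes with patterns most like those of 3 of the set were sought over the 9 libraries, by the root mean square difference of log2 values set relative to the control mean, for the 3 genes with the largest F statistic. For NR4A1 the nearest were DEPTOR (0.18), EOMES (0.20), CACNB2 (0.22), TNFRSF10D (0.23) and KCNJ6 (0.23). For NR4A2 they were PLEKHB1 (0.17), MMP11 (0.20), STAT4 (0.22), MSMP (0.25) and E2F5 (0.26). For JUNB they were ETV5 (0.053), FAM83B (0.054), KIAA0319L (0.061), GALC (0.061) and TEAD2 (0.062). ETV5 was at 0.63 after siMENA11a and 0.36 after siMENA on the log2 scale, next to 0.67 and 0.31 for JUNB.

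The target of the siMENA11a mix is shown for its own sequence, the 63-base exon taken as exon 11a from GENCODE 29 (GRCh38, strand of the gene), with capitals on the stretch that holds both 7-base words named next.
ENAH exon 11a, chr1:225504991-225505053, minus strand: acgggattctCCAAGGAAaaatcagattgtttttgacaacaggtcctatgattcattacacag
The words CAAGGAA and CCAAGGA come from an earlier pass over these data, in which they were picked because genes with them in the 3' UTR were lower in siMENA11a, so they are no independent evidence. With every annotated 3' UTR of a gene searched, at least 1 of them occurs in 25.8% of 11311 genes and in 2 of the 10 genes here. Those 2 are FOSB and FOSL1, which were higher (FOSB) or not called (FOSL1) after siMENA11a. NR4A1, the 1 gene of the 10 that fell after siMENA11a, holds neither. The 4 words picked the same way for siMENA occur in 30.1% of genes and in FOSB and FOSL2, and not in FOSL1, which fell after siMENA. Outside the 10 genes, named genes that hold a word went both ways, and the following are examples picked by no rule. HRAS and ATF1 fell after siMENA11a and hold CAAGGAA, while MAFG (with CAAGGAA) and CSRNP1 (with CCAAGGA) rose. For siMENA, ATF3 and KRT7 fell and DUSP6 and PHLDA1 rose, and each holds a word of that set. The part of these words in the results was not tested.

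Heat shock chaperone genes, markers of proteotoxic stress that shares inducers with FOS and EGR1, gave calls that depended on the scaling. Of 12 tested 3 rose and 6 fell after siMENA11a (0 and 8 in TPM as deposited), and 1 rose and 7 fell after siMENA (3 and 3), beside 27.9% and 27.7%, and 23.7% and 25.8%, of all tested genes. The summed level was 2767.4 to 2874.1 scaled TPM in control, 2201.2 to 2332.9 after siMENA11a and 2383.5 to 2458.0 after siMENA. Fibroblast markers summed to 8.83 to 9.41 scaled TPM in control, 7.80 to 8.23 after siMENA11a and 15.4 to 17.2 after siMENA, of which COL1A1 was most, and COL1A2 reached at most 0.0275. Endothelial markers summed to 0.513 to 0.672, 0.550 to 0.587 and 0.973 to 1.18 in the same order, with TEK listed at 0 in every library. The fibroblast and endothelial sums moved with siMENA as the NR4A genes did, and their part in those results was not tested.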

How the data were processed

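Total RNA of 9 H2030 libraries was ribosome-depleted, made into stranded libraries and sequenced as read pairs, per the labels' protocols. The authors deposited 1 table of TPM for 29972 genes; GRCh37 and kallisto are named, without a role, per the submitters' processing notes, and the table's name points to RSEM. Aligner and strand setting: not given in the sources used here, and with TPM alone neither the depth of a library nor a counting error is known. The 9 value columns all entered the fit (0 others).

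TPM was divided by a median-of-ratios size factor per library (12341 genes with a mean of at least 1 TPM and no 0). Genes averaging 0.5 scaled TPM or more (13498) were tested as log2(scaled TPM + 0.5) by limma 3.58.1 under R 4.3.3 (1 fit of 3 group means, eBayes with a mean trend, no block). A gene was called at an adjusted p under 0.05 (Benjamini-Hochberg over all tested genes). Fold changes on this log2 scale understate changes of low genes. Errors are SE for log2 fold changes and SD (n = 3) for means. The script was tested on simulated data first. Shares of families were compared by exact permutation tests.

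Named genes are the 10 members, up to 4 called genes per list and comparison by adjusted p, up to 4 per list called with opposite signs in both knockdowns, and DUSP1, ATF3, MYC, JUND, DUSP6, SRF and ENAH. For likeness, the 5 nearest genes of the 3 members with the largest F are named. EGR2, EGR3, EGR4, RXRA, RXRG, DUSP2, CTGF, CCND1 and markers given for their low level fall outside the rule and were named after their values were seen. Members and lists were chosen with earlier results of these data known. Alternatives were 3 other scalings, 2 pseudocounts, 2 filters, robust eBayes, a replicate block, only the 2 groups compared, and each library left out.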

Additional observations from a re-analysis of the deposited data

How the results depend on the processing

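Of the log2 fold changes of the 10 genes under the alternatives, 537 kept direction and call, 11 gained a call, 2 lost one and 7 changed sign. Sign changes in TPM as deposited were JUN after siMENA11a (-0.095), after siMENA (0.055) and between the knockdowns (-0.15), and FOSL2 in siMENA11a against siMENA (-0.034). Without small and structured RNAs JUN was at 0.091 in siMENA against control. Leaving out 1 library each, JUN in siMENA11a against control ranged from -0.013 to 0.076 and EGR1 in siMENA11a against siMENA from -0.22 to 0.0087. None of these values was called in the main or the alternative setting, except FOSL2 in the main one. The count of the 10 genes called higher was 3 in siMENA11a against control with a filter at a mean of 5, which leaves 7 of the genes, and 1 in siMENA11a against siMENA in TPM as deposited.

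Over all tested genes, TPM as deposited gave 1965 higher after siMENA11a, 2300 lower after siMENA, and 2030 higher and 6321 lower between the knockdowns. Without small and structured RNAs 5215 were higher and 2318 lower in siMENA against control. The main counts were 3770 higher in siMENA11a against control, 3196 higher and 3478 lower in siMENA against control, and 3984 higher and 3937 lower in the direct comparison. The cause was not tested beyond the scaling itself.

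Library numbers did not pair the samples: same-numbered libraries of different groups deviated together with r from -0.065 to 0.058 over 9 pairs. With the replicate block 7309, 6386 and 7732 genes were called in the 3 comparisons against 7503, 6674 and 7921 without it, and the counts of the 10 genes were 5 and 1, 6 and 1, and 3 and 3, as without it. Among called values of the list genes the text's rule names, 3 changed sign and 26 lost their call in TPM as deposited, 1 and 13 without small and structured RNAs, and 3 and 8 under quantile normalisation. No setting was left out. FOSB, FOS and NR4A3, at a few TPM or less, have unknown read support.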
